A study of Arabidopsis thaliana with 4 samples.

Results

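UDP-glycosyltransferases, or UGTs, were followed in whole seedlings of Arabidopsis thaliana that had been kept in liquid medium with aluminium. The genes were taken by name: every probe set that the annotation of the array pairs with exactly 1 gene called UGT plus a family number, a letter and a gene number. That gave 47 genes with 1 probe set each, of 22746 plant probe sets on the Affymetrix ATH1 array. They fall into 11 families, with 9 genes in UGT71, 8 in UGT76, 7 in UGT73, 5 each in UGT84 and UGT85, 4 in UGT72, 3 each in UGT74 and UGT78, and 1 each in UGT80, UGT87 and UGT88. A further 3 probe sets pair a UGT with another gene and were not counted as members.

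Seedlings were moved from agar to a diluted, modified MS (Murashige and Skoog) liquid medium with 1% sucrose. The aluminium group had 50 µM aluminium for 16 h and the control group was mock-treated, with 2 arrays in each group. Every sample carries the same treatment text, which names aluminium, so the groups were taken from the sample titles. RNA from 100 seedlings was pooled for each array, so roots and shoots were measured together, and no age or strain is given in the labels. In such bulk RNA, fewer cells of a type and less RNA per cell cannot be told apart.

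UGTs move a sugar from a UDP-sugar, most often glucose, to a small molecule. In plants, the acceptors include hormones, flavonoids, lignin precursors, glucosinolate intermediates and foreign compounds, and the sugar usually makes the product more soluble and less active. Family numbers follow sequence likeness and only partly the acceptor, so that 1 family can hold genes with different substrates. Aluminium ions stop root growth in acid soils, and the comparison asks how transcripts of these genes differ in seedlings that meet the metal.

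No UGT gene passed the test for a difference between aluminium and control. In 5 of the 47 genes (10.6%) aluminium and control differed by more than the arrays of either group did, beside 19.2% of all plant probe sets. UGT76E2 was 3.45-fold higher under aluminium, as a ratio of group means on a log2 scale. UGT73B1 was also higher, but its control signal lay below the median of bacterial control probe sets, so the size of its fold depends on the pseudocount. UGT76D1, which glycosylates dihydroxybenzoic acids derived from salicylate, was 2.05-fold lower under aluminium. In the UGT71 family all 9 genes had a positive difference, or 6 of 9 without aluminium replicate 1, and in UGT84 4 of 5 had a negative one, or 3 of 5 when an array other than control replicate 1 was left out. Within most other families, the members pointed both ways.

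Values are the deposited linear intensities, and differences are aluminium minus control on the scale log2(intensity + 16), which understates the change of dim probe sets. The test was limma, a linear model with moderated spread, fitted over all plant probe sets with Benjamini-Hochberg adjustment at 0.05. Over the 22746 probe sets 0 passed (0%), and 0 of the 47 UGT genes did, with a smallest adjusted p of 0.966 in both. Limma's unadjusted p was under 0.05 for 1084 probe sets (4.77%) and for 2 UGT genes (4.26%), UGT73B1 and UGT76E2. When the spread was allowed to follow the mean intensity, the counts at that level were 937 probe sets and 0 UGT genes.

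The UGT genes had a positive difference in 28 cases (59.6%, beside 50.4% of all plant probe sets) and a negative one in 19. Their median was 0.25, beside 0.01 over all plant probe sets. Both aluminium arrays lay above both control arrays in 9 of the 47 (19.1%), where the share over all plant probe sets was 16.5%. Both lay below in 6 (12.8%), where that share was 16.2%. These shares were near those of the whole array. The median of the UGT genes was 0.04 without aluminium replicate 1 and 0.10 without aluminium replicate 2.

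**Figure D1:**
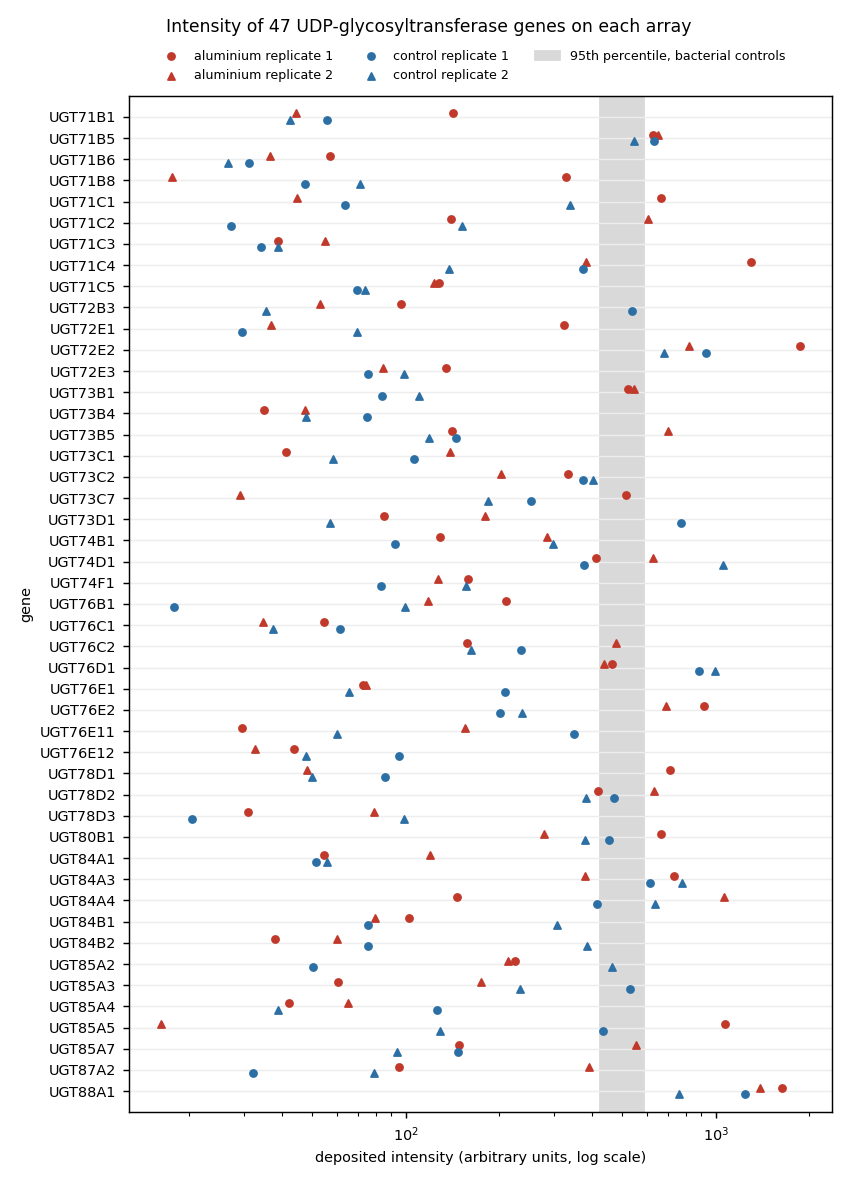
Deposited intensity (log axis) of each of the 47 UGT genes on the 2 aluminium arrays (red) and the 2 control arrays (blue), with circles for replicate 1 and triangles for replicate 2. The grey band spans the 95th percentile of bacterial control probe sets on the 4 arrays, 422 to 586. Most genes lie left of it on most arrays.

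Most UGT probe sets were dim. The median UGT gene stood at 147 and 139 on the aluminium arrays and at 107 and 119 on the control arrays. A strict background level was taken per array as the 95th percentile of 27 bacterial control probe sets, and was 586 and 457 on the aluminium arrays and 422 and 478 on the controls. Of the 47 genes, 10 and 12 exceeded it on the aluminium arrays, against 11 and 7 on the control arrays. The level is no floor, since it lies above the median plant probe set, 327 to 351 on the 4 arrays. It stands for background only if no RNA matching these control probe sets was added to the samples, which was not checked. UGT71B5, UGT72E2 and UGT88A1 exceeded it on all 4 arrays, 25 genes on none, and 19 on some. For comparison, 35.1% to 45.3% of all plant probe sets exceeded the level on an array. The share of UGT genes was 21.3% and 25.5% on the aluminium arrays and 23.4% and 14.9% on the control arrays.

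UGT73B1 (AT4G34138) belongs to the family that includes glycosyltransferases of flavonoids and of defence. It gave 522 and 546 under aluminium, against 84.0 and 111 for controls. Its difference of 2.29 had a 95% interval from 0.64 to 3.93 and lay between 2.12 and 2.46 when any 1 array was left out. The aluminium arrays were close to each other and far above both controls, and 1 of the 4 values exceeded the background level of its array. Both control values lay below the median of the bacterial probe sets on their arrays, 111 and 125. The difference was accordingly 2.46 with a pseudocount of 1 and 1.89 with 64, and was past the adjusted test with neither.

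UGT76E2 (AT5G59590) gave 914 and 693 under aluminium, against 201 and 238 for controls. Its difference was 1.79, with an interval from 0.13 to 3.45 and a range of 1.59 to 1.99 when 1 array was left out. Both aluminium values exceeded the background level and neither control value did. The gene beside it in the genome, of the same subfamily, had its groups overlap.

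UGT76D1 (AT2G26480) gave 462 and 436 under aluminium, against 883 and 997 for controls. The difference was −1.04, with an interval from −2.67 to 0.59, and between −1.12 and −0.95 without any 1 array. Here both control values exceeded the background level and neither aluminium value did. The 5 UGT genes in which the groups differed by more than the gap between the arrays of either were these 3, UGT71C5 and UGT85A3.

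**Figure D2:**
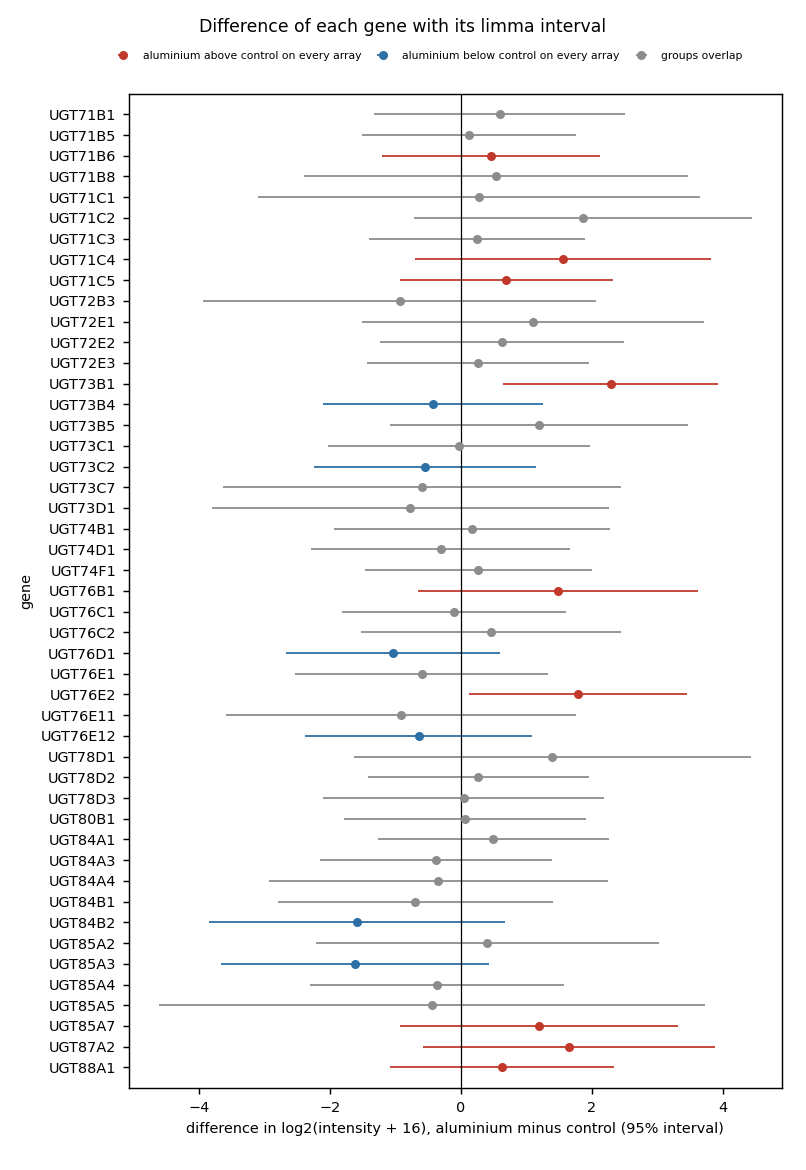
Difference between aluminium and control in log2(intensity + 16) for each of the 47 UGT genes (points), with the 95% interval of the limma fit (bars). Red genes have both aluminium arrays above both controls (9 genes), blue ones both below (6 genes), and grey ones overlap. The intervals of UGT73B1 and UGT76E2 alone lie off 0, and neither gene passed the adjusted test.

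The intervals were wide. The median distance from a difference to its 95% bound was 1.99 over the UGT genes, and 1.98 over all plant probe sets. The gap between the 2 aluminium arrays was 0.93 in the median UGT gene and that between the 2 controls was 0.63, while the absolute difference between the groups was 0.59. Over all plant probe sets, these values were 0.90, 0.76 and 0.63.

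UGT85A5 (AT1G22370), named after its values were seen, had the widest interval of the UGT genes. It gave 1075 and 16.2 under aluminium, against 433 and 129 for controls. The aluminium arrays thus held both its highest and its lowest value, and its difference of −0.45 became 2.10 without aluminium replicate 2.

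**Figure D3:**
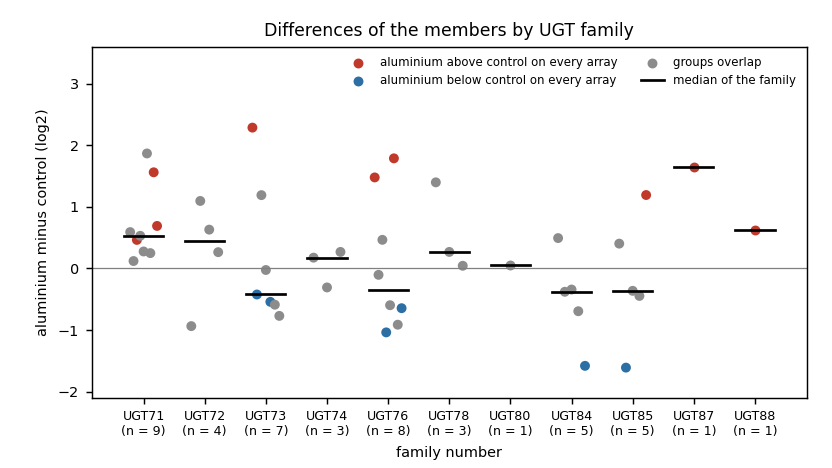
Differences of the 47 UGT genes (points) by family number, on the log2 scale, with the median of each family as a black bar. Colours as in the legend give whether the groups overlap. All 9 points of UGT71 lie above 0, with a median of 0.53, and 4 of 5 points of UGT84 lie below it, with a median of −0.38. Both medians rest on few arrays, and without 1 array they ranged from 0.23 to 0.87 and from −0.84 to −0.04.

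By family, the UGT71 genes had a median difference of 0.53, with values from 0.12 to 1.87. Both aluminium arrays lay above both controls in 3 of the 9 (33.3%), UGT71B6, UGT71C4 and UGT71C5, beside 16.5% of all plant probe sets. UGT71C4 was apart by 382 under aluminium against 375 for controls. The UGT72 genes had a median of 0.45 (3 of 4 positive), the UGT74 genes 0.18 (2 of 3) and the UGT78 genes 0.27 (3 of 3, or 2 of 3 with quantile normalization). None of the genes in these 3 families separated the groups, where 16.5% of all plant probe sets lay above and 16.2% below. These families hold 3 or 4 genes each, too few to read this as a family trait. Medians were negative in UGT73 at −0.42 (5 of 7 negative), in UGT76 at −0.35 (5 of 8), in UGT84 at −0.38 (4 of 5) and in UGT85 at −0.36 (3 of 5). The 2 genes with the smallest unadjusted p, UGT73B1 and UGT76E2, thus stood on the other side of 0 from their family's median. When 1 array was left out, the median of UGT71 lay between 0.23 and 0.87 and that of UGT84 between −0.84 and −0.04. The medians of the other 6 families with at least 3 genes lay on both sides of 0. They ranged from −0.14 to 0.89 in UGT72, from −0.49 to 0.34 in UGT73, from −0.59 to 0.66 in UGT74, from −0.66 to 0.19 in UGT76, from −0.02 to 0.87 in UGT78 and from −1.05 to 0.32 in UGT85. No family was tested as a group.

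Several UGTs inactivate hormones. UGT71B6 and UGT71C5 attach glucose to abscisic acid, the hormone of water deficit. UGT71C5 (AT1G07240) gave 129 and 123 under aluminium, against 69.7 and 74.1 for controls, a difference of 0.69 with a standard error of 0.66. UGT71B6 (AT3G21780) gave 57.0 and 36.6 under aluminium, against 31.3 and 26.7 for controls, and differed by 0.46 with a standard error of 0.68. Both lay above the controls on every aluminium array, as did 16.5% of all plant probe sets, and both were under the background level on all 4 arrays. UGT71B6 was also below the median of the bacterial probe sets on all 4 arrays, and UGT71C5 exceeded that median on only 1.

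Among the genes that act on salicylate and related defence compounds, the values did not point one way. UGT76B1 (AT3G11340) glycosylates isoleucic acid, salicylate and N-hydroxypipecolic acid. It gave 211 and 118 under aluminium, against 17.9 and 99.4 for controls, and its difference was 1.48 (95% interval −0.66 to 3.61). Its groups were apart, and the difference was 0.59 without control replicate 1, the lowest array. UGT74F1 (AT2G43840), a salicylate glucosyltransferase, gave 158 and 127 under aluminium, against 83.5 and 156 for controls, so that its groups overlapped. The negative value of UGT76D1 stands beside these.

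UGT74D1 (AT2G31750) glycosylates auxin and its oxidised form. It gave 413 and 627 under aluminium, against 377 and 1058 for controls. UGT84B1 (AT2G23260), which makes an auxin glucose ester, gave 103 and 79.9 under aluminium, against 75.7 and 308 for controls. In both genes control replicate 2 was the highest array and the groups overlapped.

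Cytokinins are glycosylated by UGT76C1 and UGT76C2 on a ring nitrogen. UGT76C1 (AT5G05870) gave 54.3 and 34.7 under aluminium, against 61.2 and 37.2 for controls. UGT76C2 (AT5G05860) gave 158 and 478 under aluminium, against 236 and 162 for controls. The difference was −0.10 for UGT76C1 and 0.47 for UGT76C2, with overlapping groups in each.

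In the phenylpropanoid branch, UGT72E1, UGT72E2 and UGT72E3 glycosylate the aldehydes and alcohols from which lignin is built. UGT72E2 (AT5G66690), one of the brightest UGT probe sets, gave 1875 and 822 under aluminium, against 934 and 679.7 for controls. UGT72E1 (AT3G50740) gave 324 and 36.7 under aluminium, against 29.6 and 69.8 for controls, and UGT72E3 (AT5G26310) gave 135 and 84.6 under aluminium, against 75.6 and 98.6 for controls. All 3 differences were positive, at 0.63 for UGT72E2, 1.10 for UGT72E1 and 0.27 for UGT72E3, and the groups overlapped in each. Without aluminium replicate 1 they were 0.04 for UGT72E2, −0.25 for UGT72E1 and −0.03 for UGT72E3.

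UGT84A1, UGT84A3 and UGT84A4 make glucose esters of hydroxycinnamic acids such as sinapate. UGT84A3 (AT4G15490) gave 737 and 379.8 under aluminium, against 615 and 781 for controls. UGT84A4 (AT4G15500) gave 147 and 1064 under aluminium, against 416 and 638 for controls, and UGT84A1 (AT4G15480) gave 54.6 and 120.2 under aluminium, against 51.5 and 55.8 for controls. The aluminium arrays of UGT84A4 lay on both sides of the controls. The difference was −0.38 for UGT84A3, −0.34 for UGT84A4 and 0.49 for UGT84A1. That of UGT84A1 was 0.02 without aluminium replicate 2, and the others changed sign with 1 array left out.

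Flavonols receive their first sugars from UGT78D1, a rhamnosyltransferase, UGT78D2, a glucosyltransferase that also acts on anthocyanidins, and UGT78D3, an arabinosyltransferase. UGT78D2 (AT5G17050) gave 416 and 633 under aluminium, against 471 and 381 for controls. UGT78D1 (AT1G30530) gave 712 and 48.1 under aluminium, against 86.0 and 49.7 for controls. UGT78D3 (AT5G17030) gave 30.9 and 79.2 under aluminium, against 20.5 and 99.1 for controls. The groups overlapped in all 3 genes. The positive difference of UGT78D1, 1.40, was −0.35 without aluminium replicate 1, the highest array.

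In glucosinolate synthesis, UGT74B1 (AT1G24100) acts at the glucosylation step. It gave 129 and 285 under aluminium, against 92.6 and 298 for controls, so that replicate 1 was low in both groups. UGT80B1 (AT1G43620) glycosylates sterols and is related to the other families only distantly. It gave 665 and 280.3 under aluminium, against 453 and 380.3 for controls, a difference of 0.06. Neither gene separated the groups.

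UGT73B4 and UGT73B5 are linked to pathogen and redox stress, and UGT73B4 and UGT73C1 also conjugate reduced products of the explosive TNT (trinitrotoluene). UGT73B5 (AT2G15480) gave 142 and 703 under aluminium, against 145 and 119 for controls, with a difference of 1.19. It was 0.10 without aluminium replicate 2, the highest array. UGT73B4 (AT2G15490), which lies beside it in the genome, gave 35.0 and 47.3 under aluminium, against 75.1 and 47.8 for controls. Its groups were apart by less than 1 unit of intensity. UGT73C1 (AT2G36750), which also glycosylates cytokinins, gave 41.0 and 139 under aluminium, against 107 and 58.5 for controls, with overlapping groups.

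The other genes named for groups that were apart were not among those listed here with a known substrate. On the higher side, UGT87A2 (AT2G30140), known for an effect on flowering time, gave 94.9 and 391 under aluminium, against 32.1 and 79.2 for controls. UGT71C4 (AT1G07250) gave 1299.6 and 382 under aluminium, against 375 and 138 for controls. UGT85A7 (AT1G22340) gave 148 and 555 under aluminium, against 147 and 93.6 for controls. The difference was 1.65 for UGT87A2, 1.56 for UGT71C4 and 1.19 for UGT85A7, and in UGT71C4 and UGT85A7 the lower aluminium value was barely above the higher control. With 1 array left out they were as low as 0.71 for UGT87A2 and 0.29 for UGT85A7, both without aluminium replicate 2, and 0.70 for UGT71C4 without aluminium replicate 1.

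UGT88A1 (AT3G16520) was above the background level on every array and gave 1635 and 1394 under aluminium, against 1241 and 763 for controls. Its difference was 0.62, with an interval from −1.08 to 2.33, and was 0.28 without control replicate 2. UGT71B5 (AT4G15280), also above background throughout, gave 627 and 653 under aluminium, against 633 and 545 for controls, with a difference of 0.12. Its interval, from −1.51 to 1.75, leaves room for a change of either sign.

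On the lower side, UGT85A3 (AT1G22380) gave 60.6 and 175 under aluminium, against 529 and 234 for controls. UGT84B2 (AT2G23250) gave 37.8 and 59.9 under aluminium, against 75.5 and 383 for controls. Their differences were −1.61 and −1.58, and each moved by more than 1.5 times when a single array was left out, to −0.95 and −0.52 at the least. UGT76E12 (AT3G46660) gave 43.5 and 32.7 under aluminium, against 95.01 and 47.8 for controls. UGT73C2 (AT2G36760) gave 334 and 204 under aluminium, against 374 and 401 for controls. The differences of UGT76E12 and UGT73C2 were −0.64 and −0.54, and with 1 array left out they were as small as −0.25 and −0.21.

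Among the genes with overlapping groups, UGT71C2 (AT2G29740), named after its values were seen, had the largest difference at 1.87 ± 1.05 (SE), which was 0.87 without aluminium replicate 2 and 2.86 without aluminium replicate 1. It gave 140.2 and 604 under aluminium, against 27.3 and 152 for controls. The arrays of replicate 2 were higher than those of replicate 1 in both groups, and aluminium was higher within each number. The remaining 11 genes, UGT71B1, UGT71B8, UGT71C1, UGT71C3, UGT72B3, UGT73C7, UGT73D1, UGT76E1, UGT76E11, UGT85A2 and UGT85A4, also overlapped between groups.

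**Figure D4:**
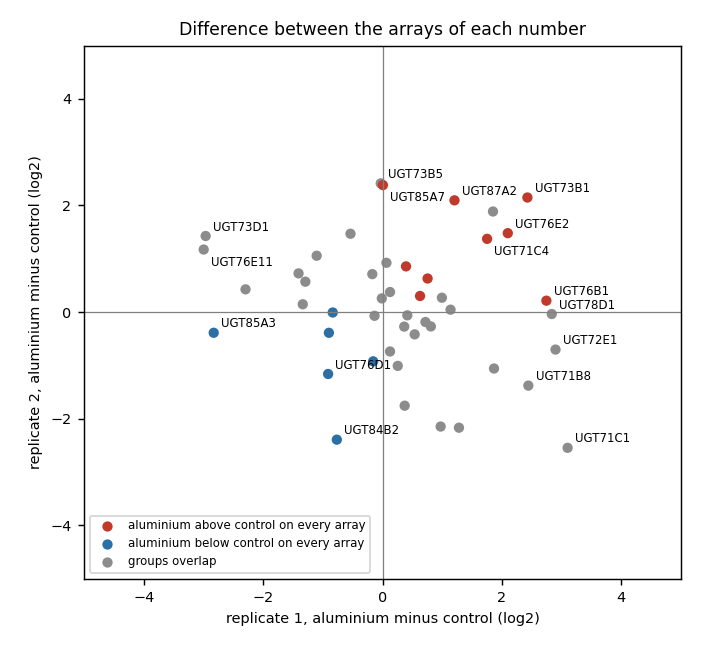
Difference between aluminium and control on the arrays of replicate 1 (horizontal) and of replicate 2 (vertical) for each of the 47 UGT genes, in log2 units, coloured by whether the groups overlap. UGT73B1 and UGT76E2 lie high in both, while 26 of the 47 genes, such as UGT71C1 and UGT76E11, have opposite signs.

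The sign of the difference was the same on the arrays of both replicate numbers in 21 of the 47 UGT genes (44.7%), and in 51.6% of all plant probe sets. The numbers come from the labels, which do not say that arrays of one number belong together. UGT73B1 differed by 2.43 between the replicate 1 arrays and by 2.15 between the replicate 2 arrays, and UGT76E2 by 2.10 and 1.48. UGT76D1 stood at −0.91 and −1.16. When any 1 array was left out, 21 genes kept the sign of their difference and 26 did not. In 4 genes, UGT71C5, UGT73B1, UGT76D1 and UGT76E2, the difference stayed within 1.5 times its value when any 1 array was left out, and in the other 43 it did not. Neither of these counts with an array left out was taken over all plant probe sets, so whether the UGT genes stand out is not known.

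Many UGTs lie in tandem in the genome. By the gene order of assembly TAIR10.1, 31 of the 47 genes formed 13 runs, in which neighbours had at most 2 other coding genes between them. In 5 runs the differences lay on both sides of 0. The run of UGT85A7, UGT85A2, UGT85A5 and UGT85A3, with no coding gene between them, spanned 1.19 to −1.61 with the ends of the run at its extremes. In UGT76E1 and UGT76E2 the values were −0.60 and 1.79, and in UGT73B5 and UGT73B4 1.19 and −0.42. The run of UGT71C5, UGT71C4 and UGT71C3 lay above 0 throughout (0.25 to 1.56), and UGT84B2 and UGT84B1 lay below (−1.58 and −0.69). Tandem copies are alike in sequence, and how far a probe set also binds its neighbour's transcript was not tested.

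Genes that make the acceptors and sugars of the UGTs were thinly covered by named probe sets, and 0 passed the adjusted test. Here and below, a listed gene counted as measured if a probe set was paired with it alone. The others may still be on the array, since 8730 plant probe sets had no gene name and 503 had several. Of 30 flavonoid and phenylpropanoid genes 4 were measured, with a median of −0.51, 1 positive and 3 negative. DFR, the dihydroflavonol reductase on the way to anthocyanins, gave 806 and 505 under aluminium, against 948 and 1419 for controls. Its difference was −0.85 with its groups apart, between −1.18 and −0.52 when 1 array was left out. It was 1 of the 4 (25%) with both aluminium arrays below both controls, beside 16.2% of all plant probe sets. Of 22 glucosinolate genes only BCAT4, an aminotransferase of methionine chain elongation, was measured, with 802 and 828 under aluminium, against 628 and 633 for controls. It was positive by 0.36, with both aluminium arrays above both controls, as in 16.5% of all plant probe sets. Of 25 genes of UDP-sugar supply only USP, a UDP-sugar pyrophosphorylase, was measured, with a difference of −0.34 and overlapping groups.

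Other routes of hormone inactivation had 6 of 22 genes measured, 3 positive and 3 negative, with a median of −0.04. DAO1, an oxidase of auxin, gave 192 and 772 under aluminium, against 1053 and 889 for controls, a difference of −1.28 that lay between −2.24 and −0.32 when 1 array was left out. It was the 1 gene of the 6 (16.7%) whose groups were apart, below both controls, beside 16.2% of all plant probe sets. Glutathione transferases, which together with UGTs form the conjugating step of detoxification, gave 13 measured genes, 7 positive and 6 negative, with a median of 0.20. GSTF4 gave 324 and 100.3 under aluminium, against 60.6 and 51.6 for controls, and GSTU28 gave 479 and 433 under aluminium, against 414 and 132 for controls. These 2 of 13 (15.4%) lay above the controls on both aluminium arrays, beside 16.5% of all plant probe sets, and 0 of the 13 lay below on both, beside 16.2%. Neither GSTF4 nor GSTU28 exceeded the background level on any array, and GSTF4 exceeded the median of the bacterial probe sets on only 2. With 1 array left out, the difference was as low as 0.69 for GSTF4 and 0.13 for GSTU28.

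Only 3 further glycosyltransferases were found under other names, and all 3 differences were positive. Whether any of them also has a UGT symbol, and so a place in a family above, was not checked. UF3GT, which adds xylose to anthocyanins, gave 375 and 423 under aluminium, against 247 and 127 for controls. Its difference was 1.10 with a standard error of 0.71, and no array of it exceeded the background level. SGT, a sterol glucosyltransferase, stood at 0.23 and AT5G54010 at 1.88, each with overlapping groups. With 1 array left out, SGT was as low as −0.57, AT5G54010 as low as 0.34 and UF3GT as low as 0.65.

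Probe sets for shoots, for roots and for added controls also differed between arrays. The shoot markers that were measured, RCA and LHCB4.1 of 4 listed, summed to 2543 and 4083 under aluminium, against 14766 and 10861 for controls. Both were lower on each aluminium array than on each control, as were 16.2% of all plant probe sets. Most of the sum was RCA, at 2491 and 3421 under aluminium, against 12687 and 9585 for controls. LHCB4.1 gave 52.3 and 662 under aluminium, against 2079 and 1275 for controls. Its gap of 3.31 between the aluminium arrays exceeded the size of its difference, −2.93. The root markers PYK10 and EXPA7, of 3 listed, summed to 573 and 1074 under aluminium, against 1429 and 995 for controls. No marker was at 0. The hybridization controls, sequences added to every array, had a geometric mean of 131442 and 11226 on the aluminium arrays, against 51057 and 6339 on the controls, and so were brighter on the replicate 1 arrays of both groups. The part of either in the UGT values was not tested.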

How the data were processed

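Whole seedlings were measured on 4 Affymetrix ATH1 arrays, 2 with aluminium and 2 controls, grouped by their titles. The deposited values are one linear intensity per probe set and array. GCOS and RMA are named in the submitters' processing notes, with no role given. A trimmed mean, with 2% taken off at each end, was 500.0 on each array, so the authors' intensities were scaled to a common mean. The 64 control probe sets were left out of the test, and no dim probe set was. Of 22746 plant probe sets, 13513 had 1 gene in the platform annotation, 503 several, and 8730 no name. All 47 UGT genes matched the TAIR10.1 gene table by Entrez identifier. Limma 3.58.1 in R 4.3.3 was fitted to log2(intensity + 16) with group as the only term. Tests were two-sided, with Benjamini-Hochberg adjustment over all plant probe sets. The code was also run on simulated data. Recovery of changes was required only at a spread below that of these arrays, so this check does not tell what could be detected here. The UGT genes and the other lists were chosen with earlier results of these data known.

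Among genes whose groups did not overlap, the 6 most positive and the 6 most negative were named, along with the 6 brightest. Of 38 genes listed with a known substrate or product, the 22 measured under their UGT symbol were also named. Genes of that list under another symbol were not matched to it, so the glycosyltransferases found as UF3GT and SGT may be among them. In each other list, up to 2 genes with the largest difference among those with groups apart were named. The summaries and plots used Python 3.11.15 and matplotlib 3.10.9. The fit was repeated with quantile normalization, with centring on the median, with the replicate number as a block, with a mean-dependent spread, with pseudocounts 1 and 64, without the dimmest 25% or 50%, at a threshold of 0.1, and without each array in turn. UGT71C2 and UGT85A5 were named after their values were seen. The labels call the arrays biological replicates and do not say whether they came from separate cultures, so the p-values measure only the spread between these arrays, which may be technical.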

Additional observations from a re-analysis of the deposited data

Results flagged for a closer look

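The probe set shared by UGT71D1 and AT2G29710 was left out of the UGT genes because it reports 2 genes. It gave 805 and 222 under aluminium, against 200.0 and 62.2 for controls, so that both aluminium arrays exceeded both controls, with a difference of 1.77 on the log2 scale and a 95% interval from −0.56 to 4.09. It did not pass limma with Benjamini-Hochberg adjustment (adjusted p = 0.966). Which of the 2 transcripts the signal came from cannot be told apart. The other 2 shared probe sets, for UGT73B2 with UGT73B3 and for UGT89B1 with AT1G73885, had overlapping groups. That of UGT73B2 and UGT73B3 gave 839 and 553 under aluminium, against 21.0 and 585 for controls. Its difference was 2.23, and lay between 0.22 and 4.24 when 1 array was left out. That of UGT89B1 and AT1G73885 differed by 0.28.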

How the results depend on the processing

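Limma called 0 probe sets and 0 UGT genes under every alternative run, including a threshold of 0.1, with a smallest adjusted p of 0.30 over settings with all 4 arrays. With the replicate number as a block, the count was 0 of 22746 (smallest adjusted p = 0.899) and the median of the UGT genes was 0.25. Deviations of same-numbered arrays correlated at 0.087 across probe sets. The median of the UGT genes was 0.090 without the dimmest 50% of probe sets, which left out 35 of the 47 genes, and 0.14 with a pseudocount of 64. Leaving out 1 array, it lay between 0.042 and 0.31. The count of positive UGT genes was 27 or 28 under other scalings and pseudocounts, 24 to 31 with 1 array left out, and was not taken where the filters left out genes. In UGT71 it was 9 of 9 under those scalings and pseudocounts, and 6 to 9 with 1 array left out. Genes above the controls on every array numbered 10 (21.3%) with quantile normalization and 13 (27.7%) with median centring, beside 16.6% and 16.7% of all plant probe sets. Those below numbered 5 (10.6%) and 6 (12.8%), beside 16.3% and 15.9%. These counts, and family medians with an array left out, were added after the data were seen. These counts were not taken with an array left out, where fewer arrays can overlap. Of 249 differences of named genes with all arrays, 3 changed sign: UGT78D3 at −0.036 with quantile normalization and −0.010 with a pseudocount of 64, and UGT73C1 at 0.014 with that pseudocount.

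Leaving out 1 array turned the sign in 16 of 36 named genes. The cause was not tested, and the share over all plant probe sets was not taken. The ranges were −0.25 to 2.44 for UGT72E1, −0.026 to 0.56 for UGT72E3, −0.75 to 0.70 for UGT73C1, −0.59 to 0.94 for UGT74B1, −1.03 to 0.42 for UGT74D1, −0.13 to 0.66 for UGT74F1, −0.37 to 0.17 for UGT76C1 and −0.29 to 1.22 for UGT76C2. They were −0.35 to 3.15 for UGT78D1, −0.024 to 0.56 for UGT78D2, −0.78 to 0.87 for UGT78D3, −0.54 to 0.66 for UGT80B1, −0.84 to 0.085 for UGT84A3, −1.71 to 1.02 for UGT84A4, −1.61 to 0.22 for UGT84B1 and −2.99 to 2.10 for UGT85A5. With an array left out, its group has 1 array, which limma takes to vary like the other. Signals under the bacterial background level, as in 25 of the 47 genes on all arrays, limit what can be read from small differences.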
